A study of Caenorhabditis elegans with 2 samples.

Results

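The regions described here are the strong CEH-13-eGFP peaks that lie in divergent promoters, the intervals between protein-coding genes transcribed away from each other. The 3000 peaks of highest signal were taken from the 30000 peaks the authors called on both replicates pooled. The 439 with a summit (the point of highest signal) within 500 bp of a tRNA, snoRNA or snRNA gene were dropped. Of the remaining peaks, 261 had a summit between 1000 bp upstream and 500 bp downstream of the 5′ ends of at least 2 protein-coding genes on opposite strands, and these are the members. Another 744 strong peaks lay in the promoter window of genes on a single strand and are called one-directional, and 1556 lay in no such window.

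ChIP-seq (sequencing of immunoprecipitated chromatin) was done on whole early Caenorhabditis elegans embryos, in 1 group of 2 biological replicates, and the authors' peak lists were used. The embryos were 2 h old, of both sexes pooled, and were obtained by bleaching; their chromatin was sonicated to 200 to 800 bp and precipitated with an antibody against GFP. Both replicates were of strain OP756, which carries the unc-119(tm4063) allele and a transgene named wgIs756. That transgene holds ceh-13::TY1::EGFP::3xFLAG together with a functional unc-119. The labels name no change to the native ceh-13 gene, so the peaks are those of a tagged transgene product, read through its GFP, and the cells that hold it are not resolved in whole embryos. With a single group no difference was tested, and all comparisons below are descriptions.

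ceh-13 encodes the worm's labial-type Hox protein, a homeodomain transcription factor known for its part in patterning the anterior body and in early embryonic divisions. Hox proteins of this type bind AT-rich sites, often together with cofactors of the PBC class. A divergent promoter drives transcription outwards in both directions from a shared, usually nucleosome-depleted interval, and in the compact genome of the worm such intervals often separate widely expressed genes of cell maintenance.

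The sequences around the summits of strong members often held GC-rich hexamers and the palindrome TTGCAA. The first set shows 6 members with such matches that are described below, in the reference sequence of WBcel235 (RefSeq), plus strand, 5′ to 3′, up to 60 bases to each side of the summit and ending where a protein-coding exon begins. Capitals mark the hexamer TGCGGC, the hexamer GGGCGG and the palindrome TTGCAA on either strand, and copies on the minus strand appear as their reverse complements.
idhg-1/mlcd-1, chrIII:4568694-4568796: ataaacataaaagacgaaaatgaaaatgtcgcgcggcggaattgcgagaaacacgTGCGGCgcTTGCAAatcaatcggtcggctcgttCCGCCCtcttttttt
uncp-18/ears-2, chrIV:390469-390553: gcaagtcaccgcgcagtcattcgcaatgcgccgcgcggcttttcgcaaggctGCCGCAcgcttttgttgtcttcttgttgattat
atx-2/ecps-1, chrIII:10461262-10461382: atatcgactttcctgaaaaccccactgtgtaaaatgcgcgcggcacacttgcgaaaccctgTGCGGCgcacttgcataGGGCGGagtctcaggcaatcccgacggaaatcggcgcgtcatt
krr-1/gei-6, chrV:7230982-7231102: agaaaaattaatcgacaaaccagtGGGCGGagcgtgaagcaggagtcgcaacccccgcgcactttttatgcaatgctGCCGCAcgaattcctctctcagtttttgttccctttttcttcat
hsp-60/Y22D7AL.10, chrIII:1619071-1619191: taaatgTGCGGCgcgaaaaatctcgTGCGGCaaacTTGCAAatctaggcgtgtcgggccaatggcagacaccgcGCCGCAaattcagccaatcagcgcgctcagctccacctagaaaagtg
hda-1/ril-1, chrV:14524376-14524496: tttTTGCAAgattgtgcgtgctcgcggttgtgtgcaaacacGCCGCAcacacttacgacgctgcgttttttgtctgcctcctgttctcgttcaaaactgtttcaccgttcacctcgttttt

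The next set shows 3 members whose matches lie close together. The first and second share the run tgcaaatcttgtgtgc, of 16 bases, which no other member holds within 100 bp of its summit. The second also lies in the promoter window of mdt-9, 122 bp upstream of that gene.
C16C10.4/rnf-121, chrIII:4171130-4171250: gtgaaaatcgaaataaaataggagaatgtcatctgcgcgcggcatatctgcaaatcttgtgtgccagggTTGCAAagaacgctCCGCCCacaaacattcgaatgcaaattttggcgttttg
Y62E10A.23/Y62E10A.20, chrIV:13386198-13386318: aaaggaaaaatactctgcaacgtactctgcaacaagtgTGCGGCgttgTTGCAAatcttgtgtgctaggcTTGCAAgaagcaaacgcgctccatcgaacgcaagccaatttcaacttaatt
C16A11.2/fbxc-44, chrII:4238051-4238171: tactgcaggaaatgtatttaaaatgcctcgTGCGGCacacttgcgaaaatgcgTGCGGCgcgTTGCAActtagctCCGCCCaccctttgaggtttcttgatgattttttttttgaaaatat

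The last set shows 2 members of high signal whose stretches hold none of the 3 hexamers.
snr-1/snx-13, chrIV:17087540-17087660: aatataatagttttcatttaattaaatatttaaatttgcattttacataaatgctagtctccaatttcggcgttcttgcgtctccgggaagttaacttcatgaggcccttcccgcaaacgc
mex-1/W03C9.5, chrII:11967709-11967829: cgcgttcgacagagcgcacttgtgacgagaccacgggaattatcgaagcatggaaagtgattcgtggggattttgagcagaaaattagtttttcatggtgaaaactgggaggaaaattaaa

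The members were chosen by their pooled signal, which is the authors' score for each peak on a scale that is not stated, so it ranks peaks within a list only. It had a median of 66.2 and ran from 50.5 to 418. The median was 59.8 for the one-directional peaks and 56.9 for the strong peaks outside promoter windows. The single strongest one-directional peak, at 720, was stronger than any member. The authors' list of peaks that passed their irreproducible discovery rate (IDR) step, which holds the 512 strongest pooled peaks, took in 73 of the 261 members, or 28.0% (95% Wilson interval 22.9 to 33.7). A q-value under 0.05 was given to 139 members, or 53.3%. Just inside the limit of the strongest peaks lay the members at dnj-28/supr-1, C17B7.3/C17B7.10 and R07E4.3/R07E4.5, with signals of 51.0, 50.7 and 50.5, which are also the 3 weakest members. The next peaks in divergent promoters below the limit, at smu-2/Y49F6B.8, cye-1/pqn-21 and mrps-10/npp-25, had 50.4, 50.3 and 50.3, so the limit cuts through a continuous range of signal.

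In the pooled list divergent promoters took a larger share of the peaks the stronger the peaks were. Among the pooled peaks ranked 1 to 100 and away from small RNA genes, 9 of 24 lay in divergent promoters, or 37.5% (21.2 to 57.3). The share was 26.4% (19.9 to 34.0) at ranks 251 to 500, 13.9% (11.0 to 17.4) at ranks 501 to 1000 and 6.19% (4.83 to 7.90) at ranks 2001 to 3000. It was 3.25% (3.01 to 3.50) at ranks 10001 to 30000, while such windows cover 2.78% of the sequence. The rise was not particular to divergent promoters. One-directional windows, which cover 23.6% of the sequence, took 41.7% of the peaks at ranks 1 to 100 and 24.2% at ranks 10001 to 30000. Each replicate list alone also gave its lowest divergent share at ranks 10001 to 30000. In replicate 1 the divergent share was 40.9% at ranks 1 to 100 and 4.85% at ranks 2001 to 3000, and in replicate 2 it was 37.5% and 4.98%. The fall was not steady in replicate 1, which had 5.90% at ranks 3001 to 5000. Over all strong peaks the density was 94.8 per Mb of divergent window, against 31.8 per Mb in one-directional windows and 21.3 per Mb elsewhere. Each replicate's own 3000 strongest peaks gave 82.8 and 77.3 per Mb of divergent window.

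**Figure D1:**
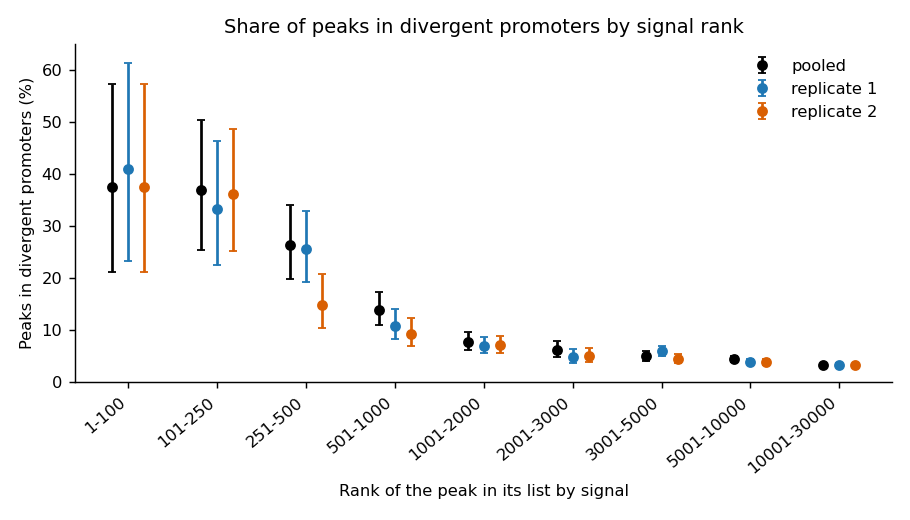
Percentage of peaks with a summit in a divergent promoter (vertical axis) against the rank of the peak by signal (horizontal axis), for the pooled list and each replicate list, leaving out peaks near small RNA genes. Points are shares and bars are 95% Wilson intervals; the pooled share is 37.5% at ranks 1 to 100 and 3.25% at ranks 10001 to 30000, and all 3 lists have their lowest share in that last class.

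The replicate lists were searched for a peak overlapping each member by at least 1 bp, and the strongest such peak was taken. The pooled list contains the reads of both replicates, so this describes the members and is not separate evidence. A peak was listed in both replicates for 245 of the 261 members. Signals there had a median of 40.9 in replicate 1 (16.3 to 251, n = 259) and of 29.4 in replicate 2 (12.5 to 187, n = 247). Across the 245 members, Spearman's rank correlation of the 2 signals was 0.480. The points share the same sequences and the same control. They were also chosen by a pooled signal that holds the reads of both replicates, so 0.480 describes these members only. Among the 3000 strongest peaks of each replicate, 190 members were found in replicate 1 and 156 in replicate 2. Both held 118 members, or 45.2% (39.3 to 51.3), and 33 members were in neither. The corresponding share in both was 31.2% (28.0 to 34.6) for one-directional peaks and 19.5% (17.6 to 21.5) for peaks outside promoter windows. Median pooled signal fell in the same order, with 66.2 in members, 59.8 in one-directional peaks and 56.9 outside promoter windows. Among the members within the 1000 strongest pooled peaks, the share in both was 79.1%. How far pooled signal accounts for the differences between these classes was not tested. Replicate summits lay a median of 22 bp and 30 bp from the pooled summit.

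**Figure D2:**
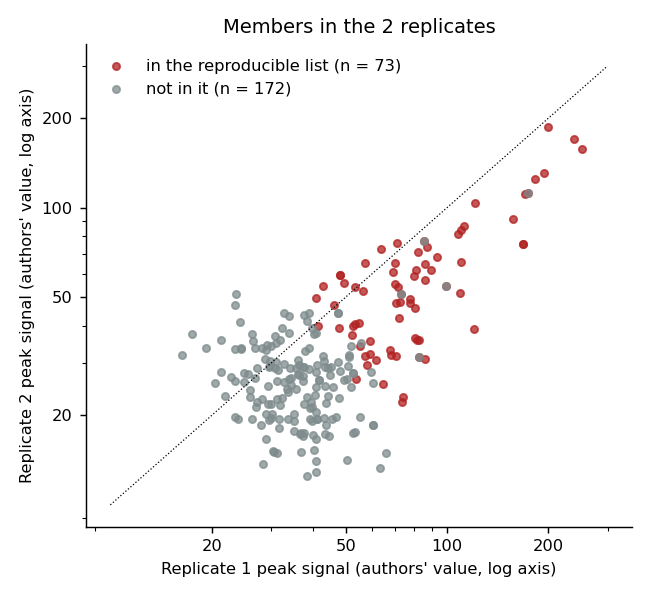
Signal of the overlapping peak in replicate 1 (horizontal, log axis) and in replicate 2 (vertical, log axis), 1 point per member with a peak in both lists (n = 245), in the authors' signal units; the dotted line marks equal values. The members of the IDR list include the highest signals, up to 251 and 187, and most other members lie at the low end of both axes.

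A few members differed sharply between the replicates. The member at W04A8.9/W04A8.5, a pair of genes for F-box-type proteins, ranked 1583 in replicate 1 with a signal of 38.5 and 29828 in replicate 2 with 12.5. At Y119D3B.12/mrpl-45, a Luc7-like protein and a mitochondrial ribosomal protein, the ranks were 1248 and 28427, with signals of 40.7 and 12.9. At rde-10/rnp-6, an RNA interference factor and a splicing factor, they were 392 and 26833, with signals of 63.2 and 13.3. The opposite order was seen at sri-67/clec-260, a chemoreceptor and a C-type lectin gene, where replicate 1 gave 16.3 and replicate 2 gave 32.0. It was seen again at gsr-1/madf-8, glutathione reductase and a MADF domain protein, where the signals were 17.5 and 37.5. In the replicate of lower rank, 4 of these 5 members ranked 26833 or lower of 30000, and gsr-1/madf-8 ranked 24014.

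The 15 strongest members are given here by the annotation of their genes, those beside genes of mitochondrial enzymes or chaperones first. This order was set after their values were seen. The member of highest signal, at chrIII:4568629-4568881, lay 43 bp upstream of idhg-1, a subunit of mitochondrial isocitrate dehydrogenase, and 624 bp upstream of mlcd-1, malonyl-CoA decarboxylase. Its signal was 239 in replicate 1, 170 in replicate 2 and 418 in the pooled list, where it ranked 12. The second, at chrIV:390342-390637, lay in an interval with a spacing of only 91 bp, 67 bp from uncp-18, a syntaxin-binding protein, and 25 bp from ears-2, the mitochondrial glutamyl-tRNA synthetase. It had 251, 158 and 406. The member between hach-1, a mitochondrial enzyme of valine breakdown, and nmad-1, annotated as a DNA N6-methyladenine demethylase, had 183, 125 and 311. Between ndua-2, a subunit of respiratory complex I, and dnj-29, a J-domain chaperone, the values were 168, 75.7 and 246. fld-1 also had its 5′ end in range of that member. The member at chrIII:1618921-1619340 lay between hsp-60, the mitochondrial chaperonin, and Y22D7AL.10, annotated as its partner, the 10 kDa heat shock protein. It had 110 in replicate 1, 65.6 in replicate 2 and 183 in the pooled list. All 5 ranked within the strongest 190 peaks of each replicate.

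Other strong members lay beside genes of RNA and protein metabolism. The third strongest, at chrIII:10461218-10461471, was 67 bp upstream of atx-2, the worm's ataxin-2 homologue and an RNA-binding protein, and 771 bp upstream of ecps-1, a protein with a proteasome-associated Ecm29 domain. It had 200 in replicate 1, 187 in replicate 2 and 391 in the pooled list. Between snr-1, the core spliceosomal protein Sm D3, and snx-13, a sorting nexin, the signals were 170, 111 and 276. krr-1 encodes a component of the small subunit processome, which assembles ribosomes. The member between krr-1 and gei-6 lay 148 bp and 194 bp from their 5′ ends and had 108, 81.4 and 197. The member between tre-1, a trehalase, and dad-1, a subunit of the oligosaccharyltransferase that glycosylates secreted proteins, had 110, 84.2 and 190. Signals are on the scale of each list, so the replicates are compared by rank only, and of the 245 members in both lists 143 ranked higher in replicate 1, 100 ranked higher in replicate 2 and 2 had equal ranks.

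Chromatin and cell cycle genes were represented by C16C10.4, annotated as the SAP18 subunit of a histone deacetylase complex, and lin-35, the worm's retinoblastoma-like protein. The member between C16C10.4 and rnf-121, a ubiquitin ligase, lay 146 bp and 237 bp from their 5′ ends and had 194, 131 and 326. The member between lin-35 and vps-51, a vesicle tethering protein, had 112 in replicate 1, 86.6 in replicate 2 and 203 in the pooled list. The remaining 4 of the 15 strongest members lay beside genes of varied annotation. pcrg-1, the homologue of the Parkin coregulated gene, and E04F6.6, uncharacterized, shared one with 174, 112 and 284. Y51F10.11, annotated as Defect at low temperature protein 1, and spe-48, a UBA domain protein, shared one with 157, 91.3 and 249. The member at sre-1, a chemoreceptor gene, lay 912 bp from it and 82 bp from B0495.9, uncharacterized, with 121, 104 and 227. Y92H12BR.3, uncharacterized, and Y92H12BR.2, annotated with a domain of the chromatin target of PRMT1 protein, shared one with 85.4, 77.5 and 178. All 15 of these summits lay outside genes, and the 7 strongest were among the 10 members narrower than the 420 bp of the others.

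The ceh-13 gene itself was no member. The strong peak in its promoter window, with a signal of 153 and a rank of 193 in the pooled list, lay 822 bp upstream of its 5′ end, at chrIII:7554628-7555047, and was one-directional.

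Member summits lay mostly in the interval between the paired 5′ ends. There 201 summits were found, or 77% (71.5 to 81.7), and the other 60 lay downstream of a 5′ end by a median of 112 bp. Of these 60, 31 were in coding sequence, 21 in other exon sequence and 8 in an intron. The paired 5′ ends of members were a median of 461 bp apart (quartiles 311 and 731), against 768 bp (376 and 1332) for all 3133 divergent pairs within reach of the rule. Of all these pairs, 270 had a member in both windows, or 8.62% (7.69 to 9.65). The share was 17.3% (14.4 to 20.7) for pairs spaced 250 to 499 bp, the highest of the spacing classes. It was 10.6% (7.91 to 14.2) at 0 to 249 bp, 10.7% (8.77 to 12.9) at 500 to 999 bp and 3.18% (2.34 to 4.32) at 1000 to 1999 bp. The rule sets how wide an interval each spacing offers a summit, so these shares are not rates per base.

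The nearer 5′ end was a median of 137 bp away and the farther one 397 bp. Among the 201 summits between the ends, the distance to the nearer end was a median of 30.9% of the interval, and for 59 it was 40% or more. The nearer gene was on the plus strand for 137 of the 261 members. Most members, 237, had 2 genes in range, 23 had 3 and 1 had 4.

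**Figure D3:**
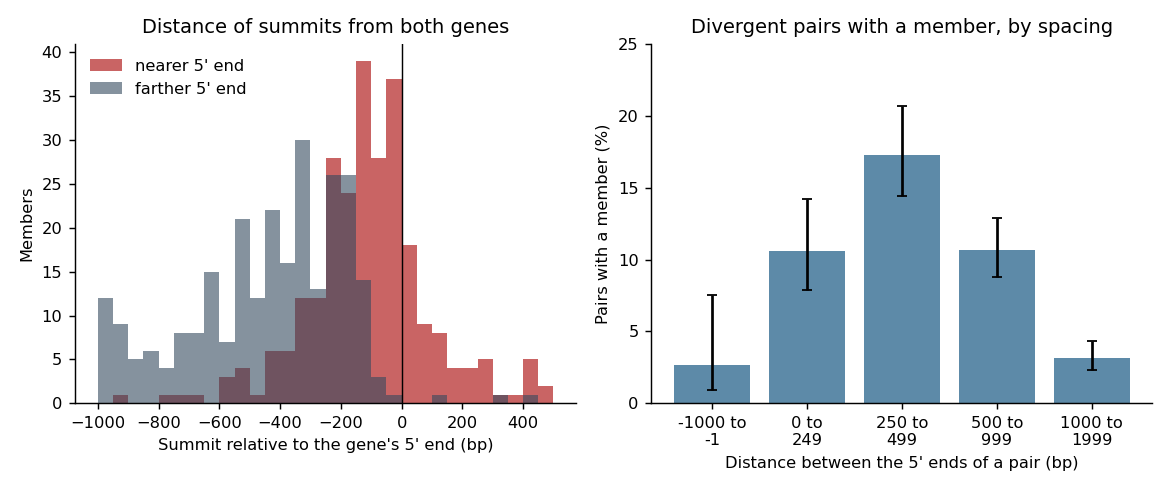
Left, number of members (vertical) against the position of the summit relative to the 5′ end of the nearer and the farther gene in bp (horizontal; negative is upstream). Right, percentage of divergent pairs with a member (vertical, bars from 0 with 95% Wilson intervals) by the distance between their 5′ ends in bp; pairs spaced 250 to 499 bp are highest at 17.3%.

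Chromosomes differed in the pooled list in how often a divergent pair had a member. The share was 14.4% of pairs on chromosome III and 11.2% on chromosome I. It was 7.43% on IV, 7.33% on II, 6.08% on V and 4.59% on X. Per Mb of divergent window this came to 148 members on III, 120 on I and 60.4 on X. Chromosome III held 65 members, with 50 under the same rule in each replicate alone, and chromosome X held 9, with 7 in replicate 1 and 4 in replicate 2. Chromosome I held 58, with 55 in replicate 1 and 42 in replicate 2, and chromosome II held 40, with 35 and 44. Replicate 2 alone thus had fewer members on I than on II.

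GC-rich hexamers and TTGCAA were frequent at the member summits. TGCGGC was found within 100 bp of the summit, on either strand, in 49 members, or 18.8% (14.5 to 24.0). The share was 11.3% (9.21 to 13.8) at one-directional peaks, 9.32% (7.97 to 10.9) at strong peaks outside promoter windows and 4.83% (3.64 to 6.38) at the 952 weaker peaks in divergent promoters. It was 3.60% (3.00 to 4.32) in windows of the same length at the midpoints of 3082 divergent pairs. Midpoints differ from member summits in place too. Only 59 of the 201 summits between the ends had the nearer end at 40% or more of the interval. The median spacing was 768 bp for all pairs and 461 bp for members. GGGCGG was found in 20.3% of members (15.9 to 25.6), 11.4% of one-directional peaks and 4.51% of midpoints. TTGCAA was found in 23% of members (18.3 to 28.5), against 10.3% of one-directional peaks (8.36 to 12.7) and 11.6% of midpoints (10.6 to 12.8). TGCGGC and TTGCAA were chosen after the summit windows were seen, for their high shares there. The hexamer CCGCAC, which overlaps TGCGGC in its reverse form in the run GCCGCAC, was found in 15.3% of members (11.5 to 20.2), 11.3% of one-directional peaks and 3.50% of midpoints. CGCACA, which overlaps CCGCAC by 5 letters, was found in 19.5%, 14.1% and 6%.

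All 3 marked hexamers were more frequent in the members of the IDR list. TGCGGC was in 30 of those 73 members (41.1%, 30.5 to 52.6) and in 19 of the other 188 (10.1%, 6.57 to 15.2). TTGCAA was likewise in 30 of the 73 and in 30 of the 188 (16%, 11.4 to 21.9), and GGGCGG in 34.2% and 14.9%. The 95 one-directional peaks of the IDR list held TGCGGC in 23.2% (15.8 to 32.6), GGGCGG in 15.8% (9.81 to 24.4) and TTGCAA in 28.4% (20.3 to 38.2). In the other 649 one-directional peaks the shares were 9.55% (7.52 to 12.1), 10.8% (8.63 to 13.4) and 7.70%. Outside the IDR list, TGCGGC was thus about as frequent at one-directional peaks as in members. The IDR list held a larger part of the members than of the one-directional peaks, which enters the shares over all of each. The IDR list is a list of high signal, so these shares also describe strong against weaker members.

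In members TTGCAA was found more often where a GC-rich hexamer was present. Of the 79 members with TGCGGC or GGGCGG, 35 also held TTGCAA, or 44.3%, while 25 of the other members did, or 13.7%. Both kinds of hexamer were more frequent in the IDR list, and split by it the shares were 56.4% and 23.5% in its members and 32.5% and 11.5% in the rest. In the one-directional peaks of the IDR list the shares were 51.9% of 27 and 19.1% of the rest. At the midpoints of all pairs they were 18.9% and 11.1%, and at the weaker peaks of divergent promoters 18.7% and 9.76%. The difference was small at the other one-directional peaks, with 10.2% and 7.16%, and at strong peaks outside promoter windows, with 8.45% and 6.83%. The members chosen by the same rule in a single replicate gave 43.8% against 12.9% in replicate 1 and 40.3% against 13.9% in replicate 2. Of their genes, 79.6% and 73% were also genes of the pooled members, so these values are not separate evidence.

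The hexamers lay close to the summit. Of the 105 matches to TGCGGC within 500 bp of member summits, 61 lay within 100 bp, or 58.1%, where an even spread would give the 20% of the length that this span makes up. The share was 59.3% for CCGCAC, 51.4% for GGGCGG and 40.7% for TTGCAA. For TGATNNAT, a pattern of sites shared by Hox and PBC proteins, it was 13.8% of 188 matches. A rise of TGCGGC and CCGCAC at the summit was not particular to members. One-directional peaks had 4.44 and 4.84 matches to TGCGGC per 100 peaks in the 50 bp before and after the summit. For CCGCAC they had 4.57 and 4.44. Their other bins of 50 bp reached at most 2.28 for TGCGGC and 2.96 for CCGCAC. Having been chosen in the windows of 100 bp, TGCGGC and TTGCAA had to lie partly inside them, so their closeness describes that choice too. CCGCAC was chosen with an earlier result of these data known. The 20% takes base composition as even, but the median GC content was 37.1% within 250 bp, 40.3% within 100 bp and 44.6% within 50 bp. How far composition accounts for these shares was not tested.

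**Figure D4:**
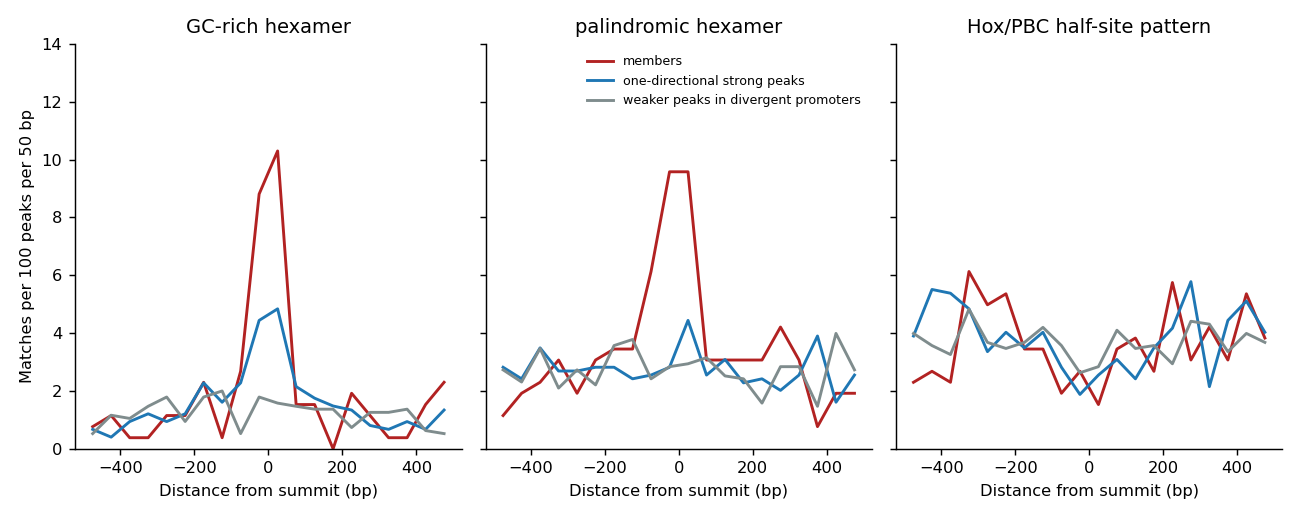
Matches per 100 peaks in bins of 50 bp (vertical) against the distance from the summit in bp (horizontal) for the GC-rich hexamer TGCGGC, the palindromic hexamer TTGCAA and the Hox/PBC pattern TGATNNAT, each on either strand. In members TGCGGC reaches 8.81 and 10.3 in the bins beside the summit and TTGCAA 9.58 in both, above the one-directional and the weaker divergent peaks, while TGATNNAT shows no peak at the summit. One-directional peaks also rise there for TGCGGC, to 4.44 and 4.84.

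AT-rich homeodomain letters were no more frequent at members than at other divergent intervals. TGATNNAT was found in 9.58% of members (6.57 to 13.8), 9.81% of one-directional peaks (7.88 to 12.2) and 15.1% of midpoints (13.9 to 16.4). TAATTA was found in 7.66%, 6.99% and 11.3%. TAGTNNTA, a shuffled form of TGATNNAT, was in 4.21% of members and 7.88% of midpoints. The E-box CACGTG was in 3.45%, near the 3.96% of midpoints. Matches are letters in a window and do not say which protein is bound. GTTCGANNC and GTTCAANNC, forms of the internal promoter of tRNA genes searched after the windows were seen, were in 0.766% and 2.30% of members.

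The windows also differed in base composition. The median GC content within 100 bp of the summit was 40.3% in members (quartiles 35.8 and 46.8), 33.8% at the midpoints of all divergent pairs and 38.3% at the weaker divergent peaks. It was 43.3% at one-directional peaks and 44.8% at strong peaks outside promoter windows, where TGCGGC was less frequent than in members. How far GC content accounts for the shares of GC-rich letters was not tested.

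In 8 members CCGCAC and CGCACA had 3 or more matches in all within 100 bp of the summit. The run CCGCACA counts for both hexamers, so 3 matches need not be 3 sites. This count covers members only and is not set against other windows. The 8 were atx-2/ecps-1, Y51F10.11/spe-48, ndua-2/dnj-29, krr-1/gei-6, hsp-60/Y22D7AL.10, hda-1/ril-1, aakb-2/Y47D3A.14 and eaf-1/nrd-1. The hsp-60/Y22D7AL.10 window also held TGCGGC 3 times, as its sequence above shows. hda-1 encodes a histone deacetylase, and its member lay 953 bp upstream of it and 307 bp upstream of ril-1, with 56.4 in replicate 1, 52.6 in replicate 2 and 109 in the pooled list. aakb-2, a regulatory subunit of AMP-activated kinase, shared with Y47D3A.14 a member with 53.2, 40.5 and 87.4. eaf-1, an elongation factor partner, and nrd-1 shared one with 51.8, 25 and 72.9. These 8 spanned pooled signals from 72.9 to 391.

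Over all genes, 515 of 19973 protein-coding genes, or 2.58%, had a member in their promoter window. Only a gene with a divergent partner can have one, and of the 5742 such genes the same 515 made up 8.97%, the background for the lists below. A strong divergent or one-directional peak lay in the window of 10.8% (10.1 to 11.7) of the genes of a divergent pair. For the 14231 genes without a divergent partner it was 4.49% (4.16 to 4.84). Each member counts for at least 2 genes by the rule, so the counting itself raises the first share. The intervals treat genes that share a peak as separate. Genes of a list can share a member and neighbour each other, so counts are descriptions. Genes of different lists can share a member too, so the lists are not separate evidence. The lists were written with earlier results of these data known.

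Among lists with at least 15 genes in a divergent pair, the share with a member was highest for chromatin regulators, splicing factors, cytosolic ribosomal proteins and nuclear transport. That order was not kept with the 1000 strongest peaks. Chromatin regulators then fell from 12 to 3 genes, splicing factors from 10 to 4, cytosolic ribosomal proteins from 17 to 8 and nuclear transport from 7 to 5. Of 53 cytosolic ribosomal protein genes in a divergent pair, 17 had a member, or 32.1%, and the same rule gave 21 in replicate 1 and 11 in replicate 2. The strongest were at rpl-20, with a pooled signal of 160, at rpl-15, with 145, and at rps-19, with 99.2. Splicing factors and small nuclear ribonucleoproteins had 10 of 31, or 32.3%, led by snr-1, by prp-19 (92.2), a spliceosome-activating ubiquitin ligase, and by rnp-6 (74.2). The same rule gave 7 genes of the list in replicate 1 and 6 in replicate 2. For nuclear pore and transport it was 7 of 25, or 28.0%, among them ima-1 (170), an importin alpha, npp-6 (159), a nucleoporin, and ran-3 (78.5), the exchange factor of the Ran GTPase. Each single replicate gave 6 for that list.

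Chromatin regulators had 12 of 33 paired genes, or 36.4%, with 8 in each replicate alone. They were led by jmjd-1.2 (111), a histone demethylase, hda-1 (109) and ash-2 (68.9), a subunit of H3K4 methyltransferase complexes. The name pattern behind the list also took mesp-1, a spindle protein. RNA polymerase subunits and initiation factors had 7 of 30, or 23.3%, the first 3 being the Mediator subunits mdt-9 (152), mdt-6 (95.1) and mdt-19 (67.6). Replicate 1 alone gave 5 for that list and replicate 2 alone gave 4. DNA replication and cell cycle genes had 9 of 57, or 15.8%, with the same number in each replicate. They were led by lin-35, spd-5 (159), a scaffold of the centrosome, and sas-5 (145), a factor of centriole assembly. The member of spd-5 is the same as that of npp-6 in the nuclear transport list. Histone genes had 14 of 67, or 20.9%, led by his-67 and his-68, which share a member of signal 154, and by his-59 (124). Since histone genes exist in near-identical copies, the placing of reads among them is uncertain. Chaperones had 7 of 35, or 20%, led by dnj-29, hsp-60 and cct-5 (86.5), a subunit of the cytosolic chaperonin.

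Lists of mitochondrial and other housekeeping genes had shares from 7.75% to 16.1%, a range that takes in the 15.8% of the cell cycle list. Respiratory chain and ATP synthase genes had 7 of 45, or 15.6%, with 12 in replicate 1 and 4 in replicate 2. ndua-2 led them, followed by ucr-2.1 (78.7) of complex III and ndua-13 (70.6) of complex I. Mitochondrial ribosomal proteins had 5 of 31, or 16.1%, led by mrpl-12 (62.3), mrpl-45 and mrps-34 (each 60.1), with 3 in each replicate alone. Translation factors had 3 of 23, which were eif-3.E (82.7), iff-2 (68.4) and eef-1G (54). Aminoacyl-tRNA synthetases had 2 of 15, ears-2 and mars-1 (84.4), and proteasome subunits 2 of 24, rpn-7 (95.4) and pbs-7 (67.8), with 1 in replicate 2 alone. Vesicle traffic genes had 8 of 68, or 11.8%, led by snx-13, vps-51 and rab-7 (156), and ubiquitin ligases and conjugating enzymes 11 of 142, or 7.75%, led by fbxb-85 (128), fbxc-44 (127) and fbxl-3 (91.5), the last annotated as a putative RNA-binding protein.

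**Figure D5:**
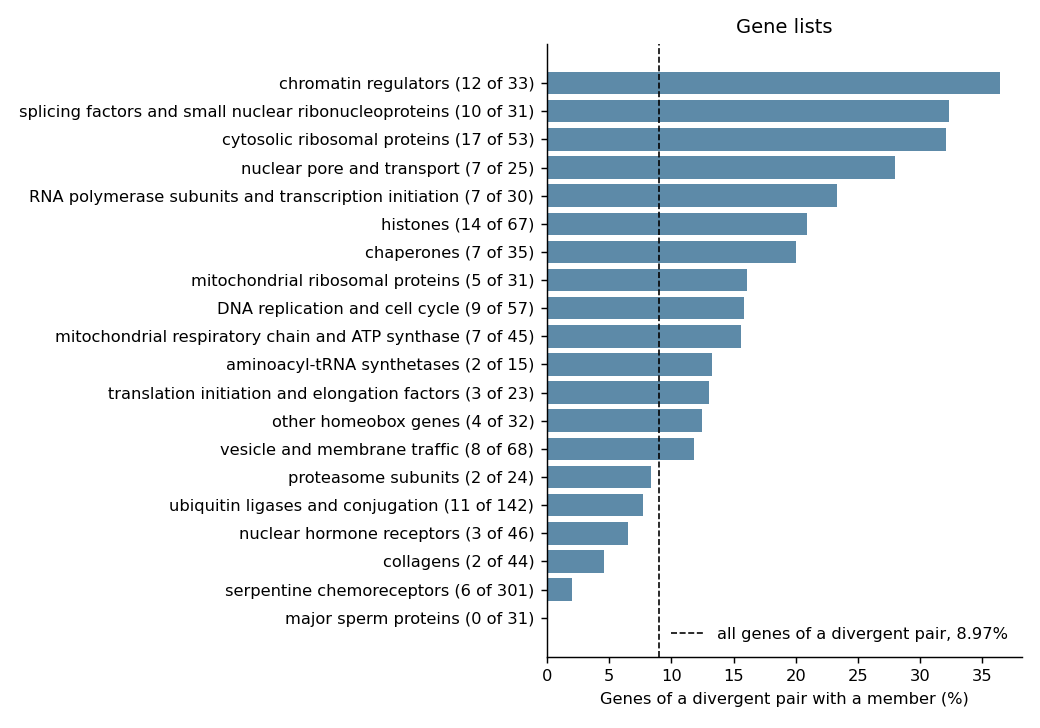
Percentage of the genes of each list that are in a divergent pair and have a member in their promoter window (horizontal bars from 0), for lists with at least 15 paired genes, with the counts beside each name; the dashed line is the 8.97% of all paired genes. Chromatin, splicing and ribosomal protein lists lie above 30%, and chemoreceptors at 1.99%.

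Serpentine chemoreceptors had a small share, 6 of 301 paired genes, or 1.99%, with 3 in replicate 1 and 5 in replicate 2, led by sre-1, srrt-1 (134) and sri-5 (123). srrt-1 is an RNA processing factor that only shares the start of its name with the receptors. Collagens had 2 of 44, or 4.55%, which were col-38 (72.1) and col-71 (56.1), and nuclear hormone receptors 3 of 46, or 6.52%, which were nhr-47 (73.8), nhr-15 (54.2) and nhr-142 (53.3). Both shares rest on few genes, and replicate 2 alone gave 1 gene in each list. Of 31 paired genes for major sperm proteins as picked by gene name none had one in the pooled list, and 1 had one in each replicate list. RefSeq also gives the product name major sperm protein to tag-267 and F57A10.2, which lie outside that name pattern and each had a member, with pooled signals of 118 and 78.5. These 2 genes were named after their values were seen.

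Developmental regulators had few paired genes. None of the 6 Hox genes was in a divergent pair, so none could have a member, and of the Hox cofactors 1 of 6 was, without a member. Other homeobox genes had 4 of 32, or 12.5%, but cogc-2 (87.2), a Golgi complex subunit, was caught by its name only. The remaining 3 were duxl-1 (69.0), ceh-38 (61.4), a one-cut factor, and unc-86 (58.1), a POU factor of neurons. Each replicate alone gave 2 genes of the list. None of the 7 paired Wnt and asymmetry genes had a member in the pooled list, and 1 had one in replicate 2 alone. The Notch pathway had 2 of 5, hop-1 (58.0), a presenilin, and pen-2 (56.0), a gamma-secretase subunit, and each replicate alone gave 1. Of the endoderm and mesoderm specification genes 2 of 5 had one. The member of mex-1 (156), a maternal RNA-binding protein, lay 868 bp from it and had 120 in replicate 1 and 39.1 in replicate 2. It is also the member of rab-7 in the vesicle traffic list. That of spn-4 (87.5), another maternal RNA-binding protein, lay 428 bp from it. Lists with so few paired genes give shares too coarse to set against the background.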

How the data were processed

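Peaks from anti-GFP ChIP-seq of 2 replicates were taken as deposited. Per the file descriptions deposited with them, 1 control alignment served the authors' peak calls for each replicate and for the pool, and the IDR list came from these 3 lists. Caller, aligner, IDR threshold and depth are not stated in the sources used here, so intervals cover the counting of peaks or genes only. Coordinates are those of ce11, as the labels state. The deposited signal is a score of unstated scale and was used to rank peaks. A q-value under 0.05 was read from the −log10 q-value deposited for each peak.

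Summits were placed on WBcel235, the same assembly, with Ensembl release 115 genes and RefSeq product names; 99.9% of 31805 start codons read ATG and no peak ended beyond a chromosome. Windows were 100 bp to each side of the summit. Motifs (15 listed, 4 added after the windows were seen) were counted on both strands. The members, the 25 gene lists and most motifs were chosen with earlier results of these data known. Genes named are those of the 15 strongest and 3 weakest members, the first 3 of each list, the 5 members most different between replicates, members with 3 or more matches to CCGCAC or CGCACA, and ceh-13. fbxc-44's and mdt-9's sequences, the peaks next to the limit, C16A11.2, W03C9.5, mesp-1, fld-1, tag-267 and F57A10.2 were named after their values were seen. Intervals are 95% Wilson. No test was made. Alternatives were other limits, windows, 5′ ends and single replicates. The selection and motif count were tested on simulated data. Python 3.11.15, numpy 2.4.6, scipy 1.17.1 and matplotlib 3.10.9 were used.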

Additional observations from a re-analysis of the deposited data

How the results depend on the processing

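A smaller or stricter peak list gave fewer members and fewer pairs with a member, while the other shares below were higher. With the 1000 strongest peaks, the IDR list and the peaks of q under 0.05, members numbered 129, 73 and 139; the share in both replicates was 79.1%, 95.9% and 75.5%; the share between the 5′ ends was 85.3%, 95.9% and 84.9%; pairs with a member made up 4.21%, 2.55% and 4.50%; and CCGCAC was in 24.0%, 34.2% and 23%. A window of 500 bp upstream and 100 bp downstream left 157 members, 86.6% of them between the ends. The share in both replicates was 37.9% with summits within 100 bp, 93.9% over all listed replicate peaks and 24.9% over the 1000 strongest. Windows of 50 and 250 bp gave a GC content of 44.6% and 37.1%, and the wider one gave CCGCAC in 21.1%.

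The rule on a single replicate gave 213 to 228 members, with 70.9% to 77.2% between the ends and 6.99% to 7.72% of pairs. Their GC content was 39.3% to 40.3%, and CCGCAC was in 14.6% to 16.2%. The share in both replicates was 49.1% to 55.9%. Such members come from the strongest peaks of their own replicate, so that share only measures presence among the strongest peaks of the other. It cannot be set against the share for pooled members. Of the 515 genes, 362 had a member in replicate 1 alone and 303 in replicate 2 alone. Keeping peaks near small RNA genes, a distance of 1000 bp from them, merging overlapping members (250 left) and transcript 5′ ends moved none of these results. Of 21 gene lists with a member, 16 kept a count within 1.5 times in replicate 1 and 11 in replicate 2; with the 1000 strongest peaks 13 fell further. The cause of these changes was not tested. No paired analysis was possible because there is 1 group. Depth is unknown, and low signals limit the weaker members most.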
